A study of Homo sapiens with 12 samples.

Results

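The genes described here encode 37 enzymes and regulators of sphingolipid and ceramide metabolism, taken from a list of named genes and kept for testing where the deposited value reached at least 1 in at least 3 of 12 libraries. The listed genes are 37 of the 57773 rows of the deposited table, and they were chosen with earlier results of these data known. Called shares of the listed genes beside all genes are therefore no independent evidence. In all, 35 of them passed the filter and stand among 18648 tested genes. The other 2, the ceramide synthases CERS1 and CERS3, did not pass. RNA was sequenced from A498, an established human kidney carcinoma cell line, after transfection with an siRNA against ELOVL2 (siELOVL2), an siRNA against ELOVL5 (siELOVL5), both siRNAs together (double knockdown), or a control siRNA, and each of these 4 treatments has 3 biological replicates. Small interfering RNAs direct the cutting of a matching transcript. ELOVL2 and ELOVL5 are elongases of polyunsaturated fatty acids. All groups are the same cell line and all were transfected, no untransfected cells are among the libraries, and the labels place all 12 libraries in 1 batch. The labels give neither the siRNA sequences, nor their number per target, nor the time of harvest.

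Sphingolipids are built from serine and a fatty acyl-CoA. Serine palmitoyltransferase carries out the first and rate-limiting step, a reductase acts on its product, the ceramide synthases attach another fatty acid, and a desaturase makes ceramide. Ceramide is phosphorylated, turned into sphingomyelin or given a sugar to start the glycosphingolipids, and it is broken down to sphingosine, whose phosphate is a signalling lipid that a single lyase removes irreversibly from the pathway.

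The deposited values, called normalized in the authors' file, have the pattern of quantile-normalized counts and are given here as normalized counts. Every column holds the same set of values and totals 8.525 M, and the depth before normalization, estimated from low counts, was 6.87 to 10.68 M reads. The third siELOVL5 library stood apart from its group, with a standard deviation of 0.455 (log2) of its genes around the group mean, against 0.342 to 0.416 in the other 11. It held the highest of the 12 values for 6 of the 35 tested members (ACER3, GBA2, KDSR, SGMS1, SPHK1 and UGCG) and the lowest for 7 (B4GALNT1, SGMS2, SMPD2, SMPD4, SPHK2, ST3GAL5 and UGT8). The third double-knockdown library held the highest value for 8 members and the lowest for 3. The same counts over all tested genes were not taken. ELOVL2 averaged 25.2 ± 6.05 normalized counts after siELOVL2, 228 ± 60.8 after siELOVL5, 23.9 ± 3.53 after both and 269.9 ± 50.7 in controls (SD, n = 3 each). ELOVL5 averaged 2038 ± 271 after siELOVL2, 147.9 ± 7.43 after siELOVL5, 179 ± 7.50 after both and 1977 ± 53.2 in controls, so both targets were low in the libraries labelled for them. All 9 listed kidney epithelial and clear cell carcinoma markers averaged at least 10 normalized counts. Their summed level was 28529 to 29587 after siELOVL2, 28951 to 32994 after siELOVL5 and 26279 to 30858 after both, against 34587 to 35075 in controls. The lower sum came from VIM (71.0%, 87.5% and 67.5% of the control mean after siELOVL2, siELOVL5 and both) and CDH6 (45.4%, 61.9% and 36.2%), while the epithelial keratins KRT8 (122%, 89.1% and 122%) and KRT18 (120.0%, 94.1% and 123%) lay above the control mean in the groups with the ELOVL2 siRNA. CDH6 overlapped the controls (1105 to 3863) after siELOVL2 (299 to 1996), siELOVL5 (624 to 2190) and both (247 to 1973). Its values rose from replicate 1 to replicate 3 in all 4 groups. VIM overlapped the controls after siELOVL5 but not where the ELOVL2 siRNA was present. The part of these differences in the results was not tested. Of the leukocyte markers only ITGAM (36.7 after siELOVL2, 26.9 after siELOVL5, 41.3 after both and 23.4 in controls) and of the fibroblast and pericyte markers only PDGFRB (20.9 over all libraries) averaged 10 or more, while no endothelial marker did. CD3E and LUM were at 0 in all 12 libraries, and the part of ITGAM in the results was not tested.

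The sequences shown first are the 3′ UTR sites of CERK, CERS6 and SPTLC1 that hold a 7-base word marking falling transcripts in an earlier scan of these same libraries. They are shown because CERK and CERS6 are members that fell where the ELOVL2 siRNA was present and SPTLC1 is a member that differed between the single knockdowns. The words were chosen on these data, with CERK among the genes that fell, so a match gives no independent evidence. Each site is 30 bases, 5′ to 3′ on the strand of the gene, in GRCh38 with the GENCODE 29 annotation, with the word in capitals.
CERK, chr22:46684414-46684443, minus strand: tttgagaagacACGAATAaagttacttggg
CERS6, chr2:168773996-168774025, plus strand: cttaaaacatcACGAATAtttttaatagga
SPTLC1, chr9:92032405-92032434, minus strand: cacaacacgcaGAGAGGActcaagactccc
The word ACGAATA lies at base 2702 of the 2723-base CERK 3′ UTR, and its last bases overlap the only AATAAA of that UTR. In CERS6 it lies at base 4345 of 5475. These were the 2 carriers among the 35 tested members, and 222 of 14090 tested genes with an annotated 3′ UTR carried the word (1.58%). That word or either of the other two of the scan that resemble it occurred in 3.54% of the 14090. Longer UTRs hold more words: among UTRs of like length, 5.88% carried one at the length of CERK and 12.7% at the length of CERS6. SPTLC2, which was also lower where the ELOVL2 siRNA was present, carried none of these words in its 6287-base 3′ UTR. Neither CERS6 nor SPTLC2 was called after siELOVL2 alone in the reported fit. GAGAGGA, the word that marked falls with siELOVL5, was in 5 of the 35 tested members (SPTLC1, CERS2, SMPD4, B4GALNT1 and A4GALT) and in 15.3% of the 14090. None of these 5 members was called after siELOVL5 in the reported fit. Without the siRNA sequences, the part of these words in any fall was not tested.

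A promoter sequence was at hand for 30 of the 37 listed genes (RefSeq, GRCh38.p14, the 250 bases before the annotated start). In the reported fit SGPL1 was the member called higher, and SPTLC1 differed between the single knockdowns without a called change against control. The promoters of SGPL1 and SPTLC1 are shown, with the GC box letters GGGCGG or the reverse complement CCGCCC in capitals.
SGPL1, chr10:70815698-70815947, plus strand: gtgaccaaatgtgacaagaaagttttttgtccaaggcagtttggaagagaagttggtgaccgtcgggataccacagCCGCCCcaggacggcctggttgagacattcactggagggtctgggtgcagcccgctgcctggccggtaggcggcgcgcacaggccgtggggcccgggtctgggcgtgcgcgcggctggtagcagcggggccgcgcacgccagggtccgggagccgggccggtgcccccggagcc
SPTLC1, chr9:92115414-92115663, minus strand: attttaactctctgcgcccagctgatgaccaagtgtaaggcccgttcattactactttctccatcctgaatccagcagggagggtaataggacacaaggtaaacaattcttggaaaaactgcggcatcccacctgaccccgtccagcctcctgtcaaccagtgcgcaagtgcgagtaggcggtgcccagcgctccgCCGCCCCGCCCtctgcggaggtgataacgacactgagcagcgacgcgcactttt
GGGCGG, read on both strands, was in 25 of the 30 members and in 42.3% of 27305 promoters of the same length. These 27305 were not limited to tested genes. CCAAT was in 6 of the 30 (CERS6, ORMDL1, ORMDL2, SPTLC2, SPTSSA and ST3GAL5) and in 33.0% of all, CACGTG in 1 (UGT8) and 6.49%, and TATAAA in none, against 11.1% of all. These matches describe letters in a window and were not tested.

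Per kilobase of exon, the dihydroceramide desaturase DEGS1, which makes ceramide from dihydroceramide, stood highest of the 37 in control cells (881 ± 107 normalized counts per kb, SD, n = 3). CERS2, the ceramide synthase for very long acyl chains, came next with 546 ± 14.2 per kb. SPTLC1, an obligate subunit of serine palmitoyltransferase, followed with 488 ± 18.6 per kb, and its catalytic partner SPTLC2 was the eleventh with 119.5 ± 12.2 per kb. The control libraries of DEGS1, CERS2 and SPTLC1 did not overlap one another per kb. UGCG, which makes glucosylceramide, stood at 239 ± 15.8 per kb, ORMDL3 at 180.2 ± 14.9, the sphingosine 1-phosphate lyase SGPL1 at 141 ± 3.49 and the ceramide kinase CERK at 82.0 ± 6.37. Many neighbours in this order lay within each other's spread, such as CERK with KDSR (81.8 per kb) and CERS4 (81.4 per kb). At the low end were SMPD3 (1.82 per kb), SGPP2 (1.62), SPTSSB (1.41) and ASAH2 (0.13). DEGS2 was at 0 in all 3 control libraries. CERS3 was at 0 in all 12 libraries, and CERS1 was at 0 in 11 and at 0.833 normalized counts in the third control library. Exon lengths are from GENCODE 29, since the authors' annotation is not stated.

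**Figure D1:**
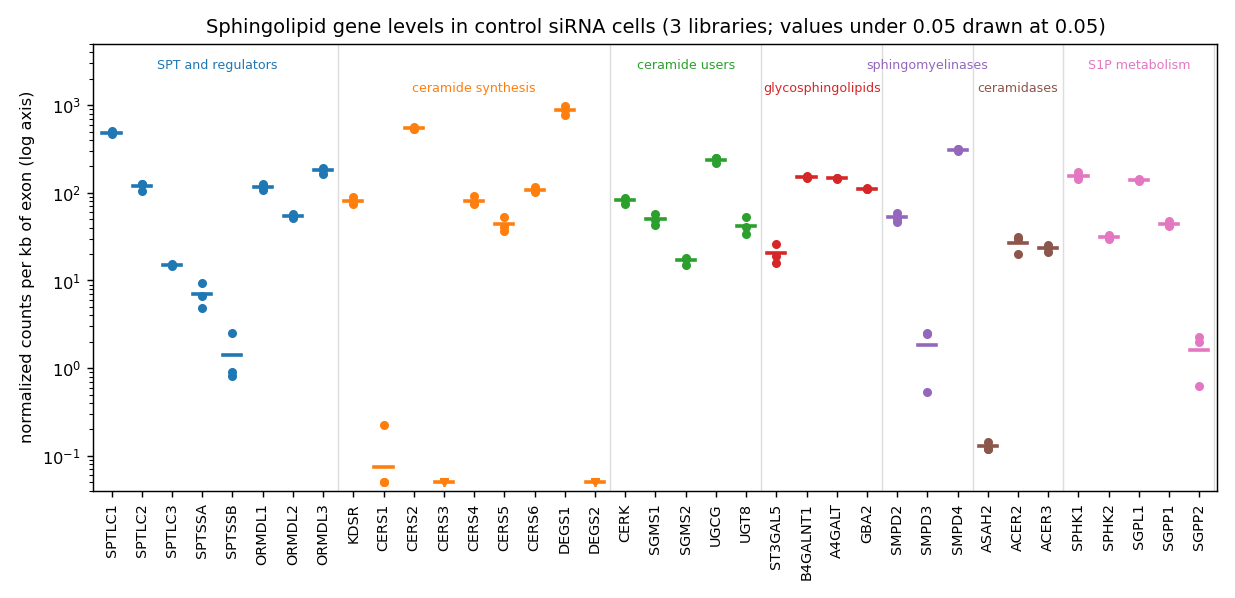
Level of each of the 37 listed sphingolipid genes in control siRNA cells, in normalized counts per kb of exon on a log axis, with 1 point per library (n = 3). DEGS1, CERS2 and SPTLC1 stand highest, CERS3 and DEGS2 are at 0 in all 3 libraries and CERS1 in 2 of them.

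After siELOVL2, CERK fell and SGPL1 rose, and no other member passed the test. CERK turns ceramide into ceramide 1-phosphate, and SGPL1 cleaves sphingosine 1-phosphate, the irreversible last step of the pathway. In all, 1 of the 35 tested members was called higher and 1 lower (limma on log2(value + 1), Benjamini-Hochberg adjusted p under 0.05), where 0.547% of all tested genes were called higher and 0.815% lower. The fold changes of 20 members lay above 0 and of 15 below, with a median of 0.05 (log2), beside a median of 0.02 for all tested genes, and 8 members had an unadjusted p under 0.05, beside 2557 of the 18648. In a bulk culture, fewer cells that carry a transcript and less of it per cell cannot be told apart. After siELOVL5 no member was called in either direction, where 0.0161% of all tested genes were called higher and 0.123% lower. Of the 35 members, 4 had an unadjusted p under 0.05, beside 1783 of the 18648, and the median fold change was 0.03, beside -0.00387 for all tested genes. In the double knockdown SGPL1 was called higher and CERK, SPTLC2 and the ceramide synthase CERS6 lower, which is 1 and 3 of 35 members, where 2.15% and 2.27% of all tested genes were called. The median fold change of the members was 0.09, beside 0.02 for all tested genes, and 10 members had an unadjusted p under 0.05, beside 3505 of the 18648. These 3 comparisons share the control libraries.

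**Figure D2:**
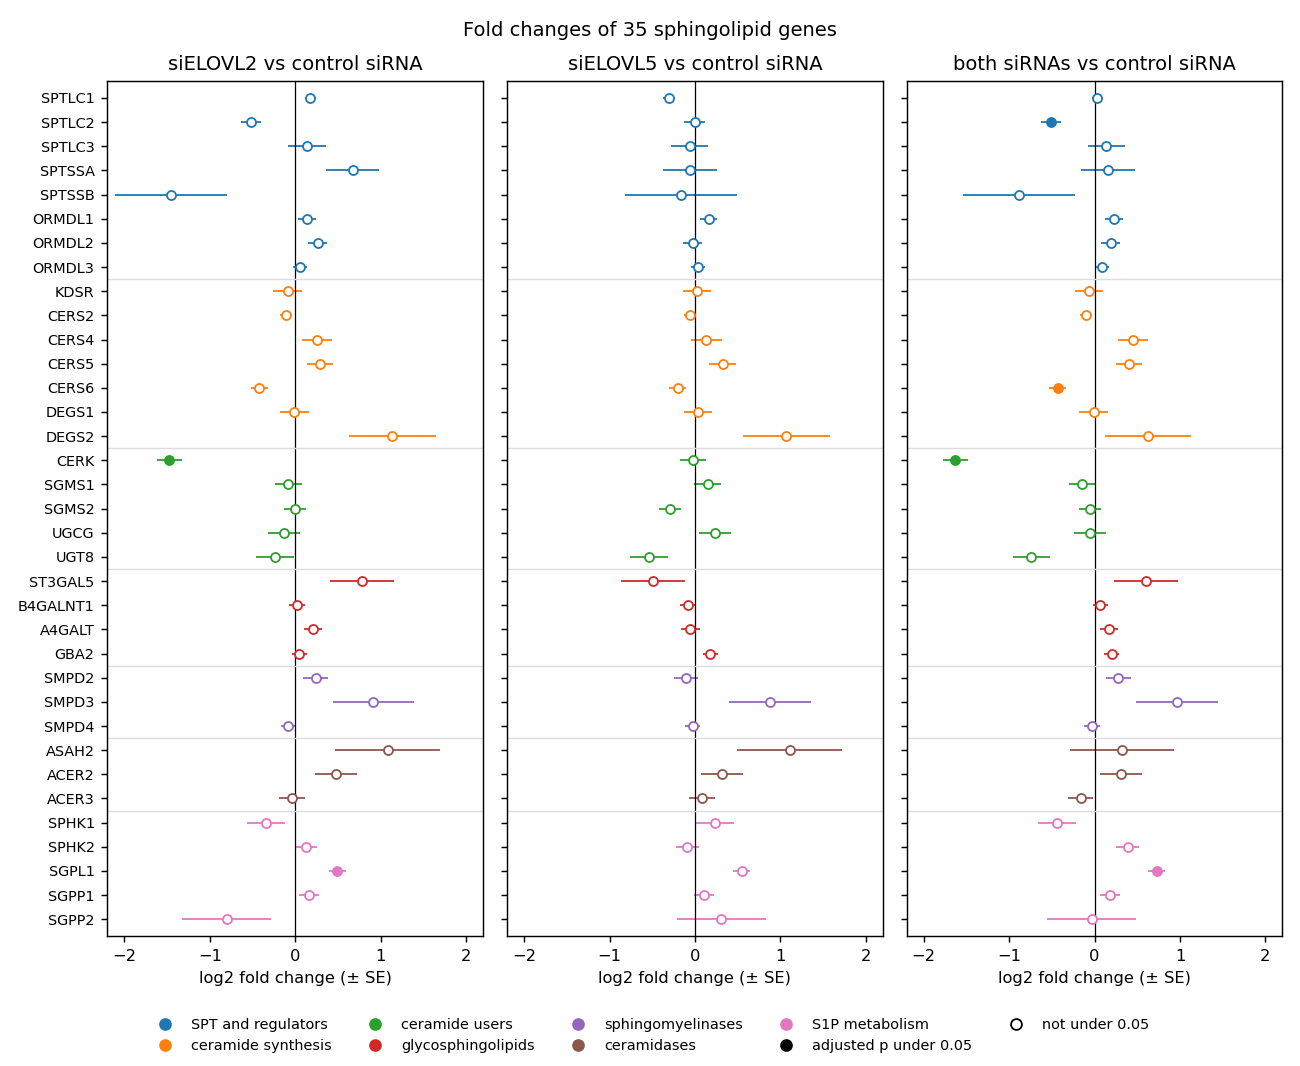
Log2 fold change (log2(value + 1) scale) against control siRNA of each tested sphingolipid gene after siELOVL2, siELOVL5 and both siRNAs, in order of role, with filled points for members called at an adjusted p under 0.05. CERK is far below 0 after siELOVL2 (-1.48) and both siRNAs (-1.63) and near 0 after siELOVL5 (-0.02), while SGPL1 is above 0 in all 3.

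Serine palmitoyltransferase is a complex of SPTLC1 with SPTLC2 or SPTLC3 and a small subunit, held back by the ORMDL proteins. SPTLC2 had 621.2, 729.1 and 695.9 normalized counts after siELOVL2, 950.1, 1084 and 887.8 after siELOVL5 and 605.5, 658.5 and 804.0 in the double knockdown, against 861.2, 1037 and 1030 in controls. Every library with the ELOVL2 siRNA lay below every control library, and the siELOVL5 libraries overlapped the controls. SPTLC2 fell in the double knockdown by 0.51 on the log2 scale (SE 0.12, limma adjusted p = 0.0306), to 70.6% of the control mean. After siELOVL2 the difference was of the same size (-0.51, SE 0.12) and its limma adjusted p of 0.0538 missed the threshold, although it passed under TMM scaling (0.0466) and without siELOVL5 replicate 3 (0.0249) or double replicate 3 (0.0299). The call in the double knockdown did not survive leaving out control replicate 2 (0.130), control replicate 3 (0.0970), double replicate 1 (0.121), double replicate 2 (0.108) or the intensity trend (0.0938), nor a fit on the compared groups alone (0.0814).

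SPTLC1 had 1311, 1284 and 1393 normalized counts after siELOVL2, 926.9, 950.1 and 980.8 after siELOVL5 and 1231, 1231 and 1149 in the double knockdown, against 1195, 1207 and 1124 in controls. The siELOVL2 libraries lay above all controls and the siELOVL5 libraries below all controls, while the double knockdown overlapped them. Neither difference from control was called in the reported fit, while a fit with library weights called SPTLC1 after siELOVL5. In the reported fit the difference after siELOVL2 was 0.18 (limma adjusted p = 0.236). After siELOVL5 it was -0.30 (SE 0.07, limma adjusted p = 0.132). The direct comparison of siELOVL5 with siELOVL2 was called at -0.48 (SE 0.07, limma adjusted p = 0.00201), and leaving out any single library kept the call, while a fit on the compared groups alone gave 0.0593. The 5 rows of the table for pseudogenes named after SPTLC1 were at 0 in all libraries.

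SPTLC1 and SPTLC2 stood in different proportions within the libraries, on a scale of normalized counts that is not per length. The ratio of SPTLC1 to SPTLC2 was 1.96 ± 0.179 after siELOVL2 (range 1.76 to 2.11), 0.986 ± 0.114 after siELOVL5 (0.877 to 1.10) and 1.78 ± 0.312 in the double knockdown (1.43 to 2.03), against 1.21 ± 0.154 in controls (1.09 to 1.39, SD, n = 3 each). All 6 libraries with the ELOVL2 siRNA lay above all 3 controls. The siELOVL5 range overlapped that of the controls. The ratio was formed after the members' values were known and was not tested.

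**Figure D3:**
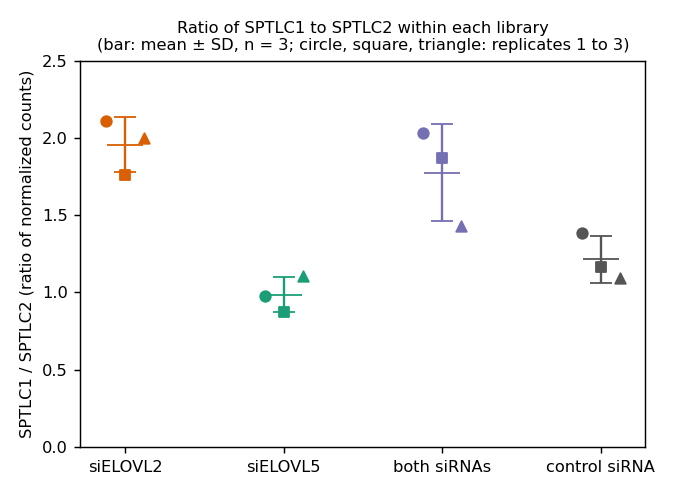
Ratio of SPTLC1 to SPTLC2 normalized counts in each library, with the mean and SD of each group (n = 3). The siELOVL2 and double-knockdown libraries lie between 1.43 and 2.11, above the control libraries, and the siELOVL5 libraries between 0.877 and 1.10.

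The other 6 members of this group were not called in any comparison. SPTLC3, the alternative catalytic subunit, ranged over the 12 libraries from 74.3 to 140.1 normalized counts. The regulators ORMDL1 and ORMDL3 ranged from 391.4 to 545.5 and from 587.8 to 702.8. ORMDL2 had 148.2, 134.6 and 152.2 after siELOVL2 and 132.2, 128.8 and 153.1 in the double knockdown, against 119.2, 115.8 and 126.6 in controls. Both knockdown groups lay above the controls for ORMDL2, by 0.26 and 0.19 on the log2 scale, with limma adjusted p of 0.318 and 0.398. The small subunits were low, with 13.3 to 32.2 normalized counts for SPTSSA and 0 to 8.17 for SPTSSB.

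After the first step, CERS6 was the member that changed. CERS6 attaches long-chain fatty acids, chiefly palmitate, to the sphingoid base. It had 621.4, 614.0 and 529.1 normalized counts after siELOVL2, 767.8, 693.8 and 597.9 after siELOVL5 and 619.5, 589.6 and 540.4 in the double knockdown, against 838.2, 773.2 and 748.6 in controls. Every library with the ELOVL2 siRNA lay below every control, and the highest siELOVL5 library reached into the control range. CERS6 fell in the double knockdown by 0.43 on the log2 scale (SE 0.10, limma adjusted p = 0.0326), to 74.1% of the control mean. After siELOVL2 the difference was -0.42 (adjusted p = 0.0675), and 0.0160 without siELOVL5 replicate 3. Leaving out control replicate 1, 2 or 3 gave 0.139, 0.103 and 0.0607 for the double knockdown, leaving out double replicate 1, 2 or 3 gave 0.0622, 0.0909 and 0.0979, and leaving out siELOVL2 replicate 2 gave 0.0526, and a fit without the intensity trend gave 0.0938. The antisense gene CERS6-AS1, whose reads a count without strand would share, averaged 1.44 normalized counts or less in every group.

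Among the other ceramide synthases none was called. CERS2 made up most of the family's normalized counts, with 64.8 ± 1.24% after siELOVL2, 63.7 ± 1.97% after siELOVL5 and 64.2 ± 0.913% in the double knockdown, against 63.3 ± 0.254% in controls. The share of CERS6 was 22.5 ± 1.59% after siELOVL2, 24.7 ± 2.11% after siELOVL5 and 22.0 ± 1.59% in the double knockdown, against 27.2 ± 0.938% in controls. These shares are of counts and not per length, and they were not tested. CERS4 had 187.7, 184.0 and 243.2 normalized counts in the double knockdown, against 139.1, 138.5 and 170.9 in controls, a difference of 0.45 on the log2 scale with no overlap and a limma adjusted p of 0.190. CERS5 had 185.6, 151.4 and 131.0 normalized counts after siELOVL5, against 106.1, 151.8 and 115.8 in controls, a difference of 0.32 with overlapping groups (adjusted p = 0.531). The reductase KDSR ranged from 367.0 to 634.8 normalized counts, its highest value in the third siELOVL5 library. DEGS1 ranged from 1530 to 2425 with overlapping groups in every comparison. DEGS2, which also hydroxylates the sphingoid base, was at or under 2.75 normalized counts in all libraries and reached 1 in 4 of them.

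Ceramide leaves this hub through the kinase CERK, the sphingomyelin synthases SGMS1 and SGMS2 and the glycosyltransferases UGCG and UGT8. CERK had 147.5, 122.3 and 122.8 normalized counts after siELOVL2, 383.8, 410.7 and 293.4 after siELOVL5 and 140.8, 107.4 and 105.8 in the double knockdown, against 368.8, 391.2 and 334.9 in controls. All 6 libraries with the ELOVL2 siRNA lay far below all 6 without it, and siELOVL5 and control libraries overlapped. CERK fell by 1.48 on the log2 scale after siELOVL2 (SE 0.15, limma adjusted p = 4.06e-04), to 35.9% of the control mean. In the double knockdown it fell by 1.63 (adjusted p = 1.15e-04), to 32.3%. After siELOVL5 it stood at 99.4% of the control mean (-0.02, SE 0.15, adjusted p = 0.986). These calls held without any single library and under every other alternative tried. CERK overlaps no other gene in GENCODE 29.

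Of these 5 ceramide-using members CERK was called. UGT8, which makes galactosylceramide, had 166.2, 175.7 and 146.4 normalized counts after siELOVL2, 150.4, 166.4 and 90.8 after siELOVL5 and 121.8, 130.2 and 94.5 in the double knockdown, against 186.8, 240.9 and 156.8 in controls. Its double-knockdown libraries lay below all controls, with a difference of -0.74 (SE 0.22, limma adjusted p = 0.0794), and the adjusted p was 0.0147 without siELOVL5 replicate 3. After siELOVL5 the difference was -0.54 (adjusted p = 0.469) with overlapping groups. UGCG had 937.6, 905.2 and 1679 normalized counts after siELOVL5, against 994.3, 992.8 and 884.2 in controls, so siELOVL5 replicate 3 alone stood high. SGMS1 ranged from 156.2 to 279.8 and SGMS2 from 81.5 to 119.2 normalized counts over the 12 libraries, and neither was called in any comparison.

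The 4 members that extend or trim glycosphingolipids were not called in any comparison in the reported fit, which has no replicate block. A fit with library weights called ST3GAL5 between the double knockdown and siELOVL5, and both ST3GAL5 and A4GALT between siELOVL5 and siELOVL2. ST3GAL5 makes the ganglioside GM3. It had 281.8, 194.6 and 140.8 normalized counts after siELOVL2, 126.7, 82.5 and 51.0 after siELOVL5 and 248.3, 208.9 and 101.4 in the double knockdown, against 150.0, 109.3 and 91.7 in controls. Every knockdown group overlapped the controls, and the values fell from replicate 1 to replicate 3 in all 4 groups. Compared within a replicate number, siELOVL2 and the double knockdown lay above control and siELOVL5 below it each time. The difference from control was 0.78 after siELOVL2, -0.49 after siELOVL5 and 0.60 in the double knockdown, with limma adjusted p of 0.381, 0.711 and 0.432. The siELOVL5 libraries lay below all siELOVL2 libraries, by -1.27 (SE 0.37, adjusted p = 0.0906, and 0.0493 without double replicate 3). With the replicate number as a block, ST3GAL5 was called after siELOVL2 and in the double knockdown against control, but not after siELOVL5. That fit also called it between siELOVL5 and siELOVL2 and between the double knockdown and siELOVL5. The ganglioside enzyme B4GALNT1 ranged from 551.2 to 735.6 normalized counts, the globoside enzyme A4GALT from 345.9 to 501.4, and the non-lysosomal glucosylceramidase GBA2 from 438.9 to 565.2.

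The neutral sphingomyelinases, which release ceramide from sphingomyelin, were not called either. SMPD4 ranged from 1267 to 1657 normalized counts, SMPD2 from 67.8 to 110.2 and SMPD3 from 2.92 to 25.5. SMPD4 has copies elsewhere in the genome, so its count is uncertain, and the rows named SMPD4P1 and SMPD4P2 held at most 2.08 normalized counts. The ceramidases, which split ceramide into sphingosine and a fatty acid, likewise gave no call. ACER2 had 120.5, 66.5 and 70.9 normalized counts after siELOVL2 and 86.7, 77.0 and 61.0 after siELOVL5, against 70.3, 44.3 and 67.3 in controls, with overlapping groups, differences of 0.47 and 0.31 and limma adjusted p of 0.436 and 0.719. ACER3 ranged from 137.2 to 237.8 normalized counts. ASAH2, the neutral ceramidase, stayed at or under 8 normalized counts.

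SGPL1 was the member that rose. It had 1221, 1201 and 1023 normalized counts after siELOVL2, 1194, 1205 and 1166 after siELOVL5 and 1466, 1450 and 1144 in the double knockdown, against 793.7, 810.9 and 833.7 in controls. All 9 knockdown libraries lay above all 3 controls. SGPL1 rose by 0.49 on the log2 scale after siELOVL2 (SE 0.10, limma adjusted p = 0.0284), to 141% of the control mean, and by 0.73 in the double knockdown (adjusted p = 0.00157), to 167%. After siELOVL5 it stood at 146% of the control mean (0.55, adjusted p = 0.0594), which missed the threshold over 18648 genes and passed under TMM scaling (0.0452) or without double replicate 3 (0.0135). The call after siELOVL2 did not survive leaving out any 1 of the control libraries (0.120, 0.123 and 0.0732 for replicates 1, 2 and 3), siELOVL2 replicate 1 (0.108), siELOVL2 replicate 2 (0.128) or the intensity trend (0.102), while that in the double knockdown held without any single library.

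The kinases that make sphingosine 1-phosphate and the phosphatases that reverse it were not called. SPHK1 had 466.8, 414.3 and 263.9 normalized counts after siELOVL2, 536.3, 438.8 and 720.4 after siELOVL5 and 431.5, 349.6 and 278.4 in the double knockdown, against 518.7, 470.2 and 426.8 in controls. The siELOVL5 difference from control was 0.23, and 0.04 without the third siELOVL5 library. SPHK2 ranged from 121.2 to 205.0 normalized counts, with the double-knockdown libraries above all controls (0.39, limma adjusted p = 0.130). The phosphatases SGPP1 and SGPP2 ranged from 137.3 to 177.2 and from 1.08 to 8.67.

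**Figure D4:**
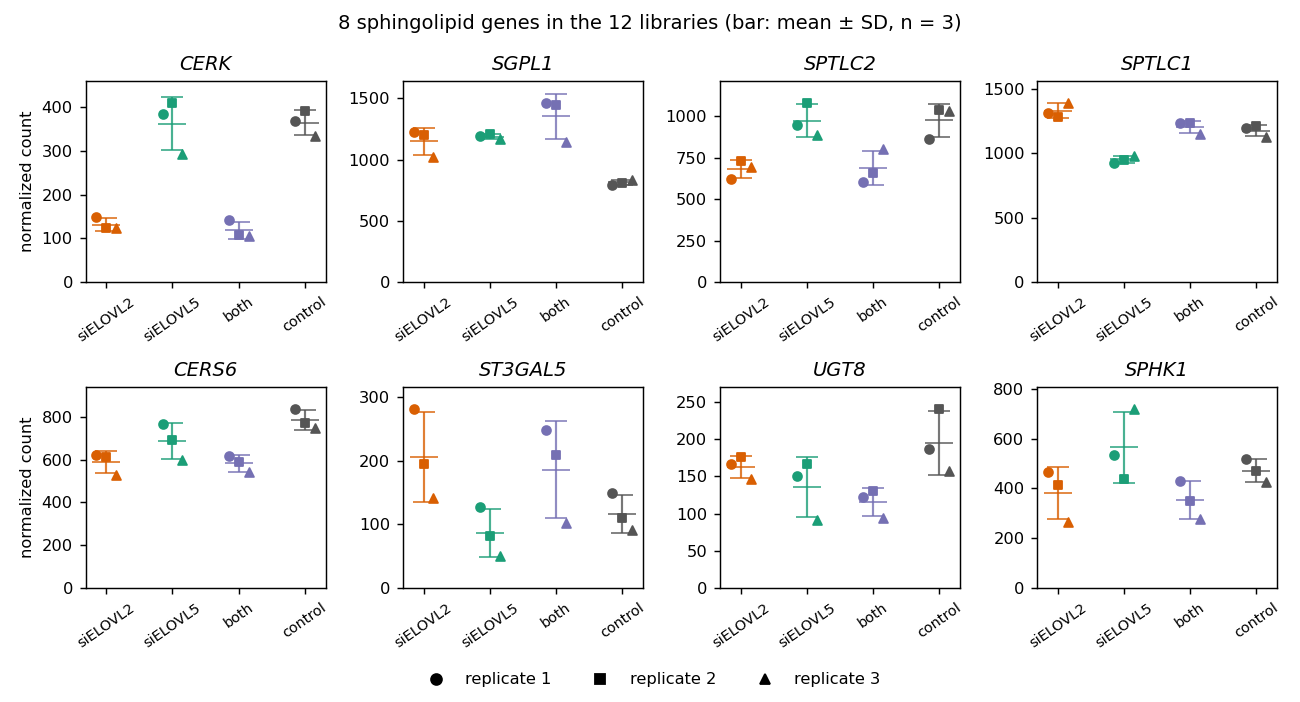
Normalized counts per library of the members the results turn on, in the siELOVL2, siELOVL5, double-knockdown and control groups (circle, square and triangle for replicates 1 to 3, bars for the mean and SD, n = 3). CERK is low in every library with the ELOVL2 siRNA (105.8 to 147.5), and SGPL1 is high in every knockdown library (1023 to 1466) against 793.7 to 833.7 in controls.

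The knockdowns were also compared with each other. Between siELOVL5 and siELOVL2, 3 of the 35 members were called, where 3.01% of all tested genes were. CERK was higher after siELOVL5 by 1.45 (limma adjusted p = 2.39e-04), SPTLC2 was higher by 0.51 (adjusted p = 0.0374) and SPTLC1 was lower (-0.48). The SPTLC2 call was lost in 8 of 12 fits that left out 1 library, with adjusted p between 0.0519 (control replicate 3) and 0.122 (siELOVL2 replicate 1), and the other 6 were control replicate 2, siELOVL2 replicates 2 and 3, siELOVL5 replicates 1 and 2 and double replicate 2. Between the double knockdown and siELOVL5 the same 3 members were called, where 2.77% of all tested genes were. CERK (-1.61, limma adjusted p = 1.36e-04) and SPTLC2 (-0.50, adjusted p = 0.0415) were lower in the double knockdown, and SPTLC1 was higher by 0.34 (adjusted p = 0.0181). The SPTLC1 call was lost without siELOVL5 replicate 1 (0.0656) and without double replicate 1 (0.0737) or 2 (0.0819), in a fit on the compared groups alone (0.173) and without the intensity trend (0.0716). For SPTLC2, 8 of the 12 libraries each ended the call when left out, with adjusted p of 0.0575 to 0.144: replicates 2 and 3 of the controls and of siELOVL2, and replicates 1 and 2 of siELOVL5 and of the double knockdown. Without the intensity trend the adjusted p of SPTLC2 was 0.120 here and 0.112 between siELOVL5 and siELOVL2, and in fits on the compared groups alone 0.222 and 0.138.

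Between the double knockdown and siELOVL2, none of the 35 members was called by limma and 3 had an unadjusted p under 0.05, where 0.059% of all tested genes were called and 672 of the 18648 had an unadjusted p under 0.05. SGPL1 differed by 0.23 (limma adjusted p = 1.0) and CERK differed by -0.16 (adjusted p = 1.0). The interaction, which asks whether 1 siRNA acted differently in the presence of the other, called 0.0% of all tested genes. No gene was called by limma, 522 of the 18648 had an unadjusted p under 0.05, and 2 of these were members. For SGPL1 the single knockdowns summed to 1.04 on the log2 scale and the double knockdown gave 0.73, a difference of -0.32 (SE 0.14, unadjusted p = 0.0410, limma adjusted p = 0.996). For CERK the sum was -1.50 and the double knockdown gave -1.63 (interaction -0.13, SE 0.21, adjusted p = 0.996).

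A list of 48 further sphingolipid genes covers lysosomal breakdown, transport, sphingosine 1-phosphate receptors, glycosphingolipid synthesis and the supply or breakdown of chains and bases. Of these, 45 were tested. This list too was chosen with earlier results of these data known, so its shares and medians beside all genes are no independent evidence. After siELOVL2, limma called 2 of the 45 higher and 0 lower, where 0.547% and 0.815% of all tested genes were called, and 12 of the 45 had an unadjusted p under 0.05, beside 2557 of the 18648. After siELOVL5, 0 were called, where 0.0161% of all tested genes were called higher and 0.123% lower, and 6 had an unadjusted p under 0.05, beside 1783 of all. In the double knockdown 4 were called higher and 0 lower, where 2.15% and 2.27% of all tested genes were called, and 15 had an unadjusted p under 0.05, beside 3505 of all. Within the lysosomal list, 1 of 10 tested genes was called higher after siELOVL2 (median of the 10, 0.22), 0 after siELOVL5 (0.07) and 2 in the double knockdown (0.30), beside medians of 0.02, -0.00387 and 0.02 for all tested genes.

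NEU1, the lysosomal sialidase, had 863.6, 808.8 and 803.0 normalized counts after siELOVL2, 529.2, 555.1 and 703.1 after siELOVL5 and 899.0, 812.9 and 854.6 in the double knockdown, against 457.3, 462.2 and 507.9 in controls. All 9 knockdown libraries lay above the controls. NEU1 rose by 0.79 after siELOVL2 (limma adjusted p = 0.00172) and by 0.85 in the double knockdown (adjusted p = 5.59e-04). After siELOVL5 it was not called.

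ALDH3A2, the fatty aldehyde dehydrogenase that takes up the product of SGPL1, averaged 1991 ± 102 normalized counts after siELOVL2, 1189 ± 175 after siELOVL5 and 2052 ± 98.1 in the double knockdown, against 1294 ± 66.4 in controls (SD, n = 3 each). It rose by 0.62 after siELOVL2 (limma adjusted p = 0.00873) and by 0.66 in the double knockdown (adjusted p = 0.00269), while the siELOVL5 difference was -0.13 (adjusted p = 0.704). Leaving out control replicate 1 (0.0599), control replicate 2 (0.0597) or siELOVL2 replicate 3 (0.0506) ended the call after siELOVL2. The activator protein GM2A and the elongase ELOVL1, which supplies very long saturated chains, were called in the double knockdown, at 0.40 (limma adjusted p = 0.0378) and 0.35 (adjusted p = 0.0328). After siELOVL2 their differences were 0.30 (adjusted p = 0.174) and 0.33 (adjusted p = 0.0762). Both calls were lost in several fits that left out 1 library, 9 of 12 for GM2A and 6 of 12 for ELOVL1, with adjusted p of up to 0.130 and 0.147.

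**Figure D5:**
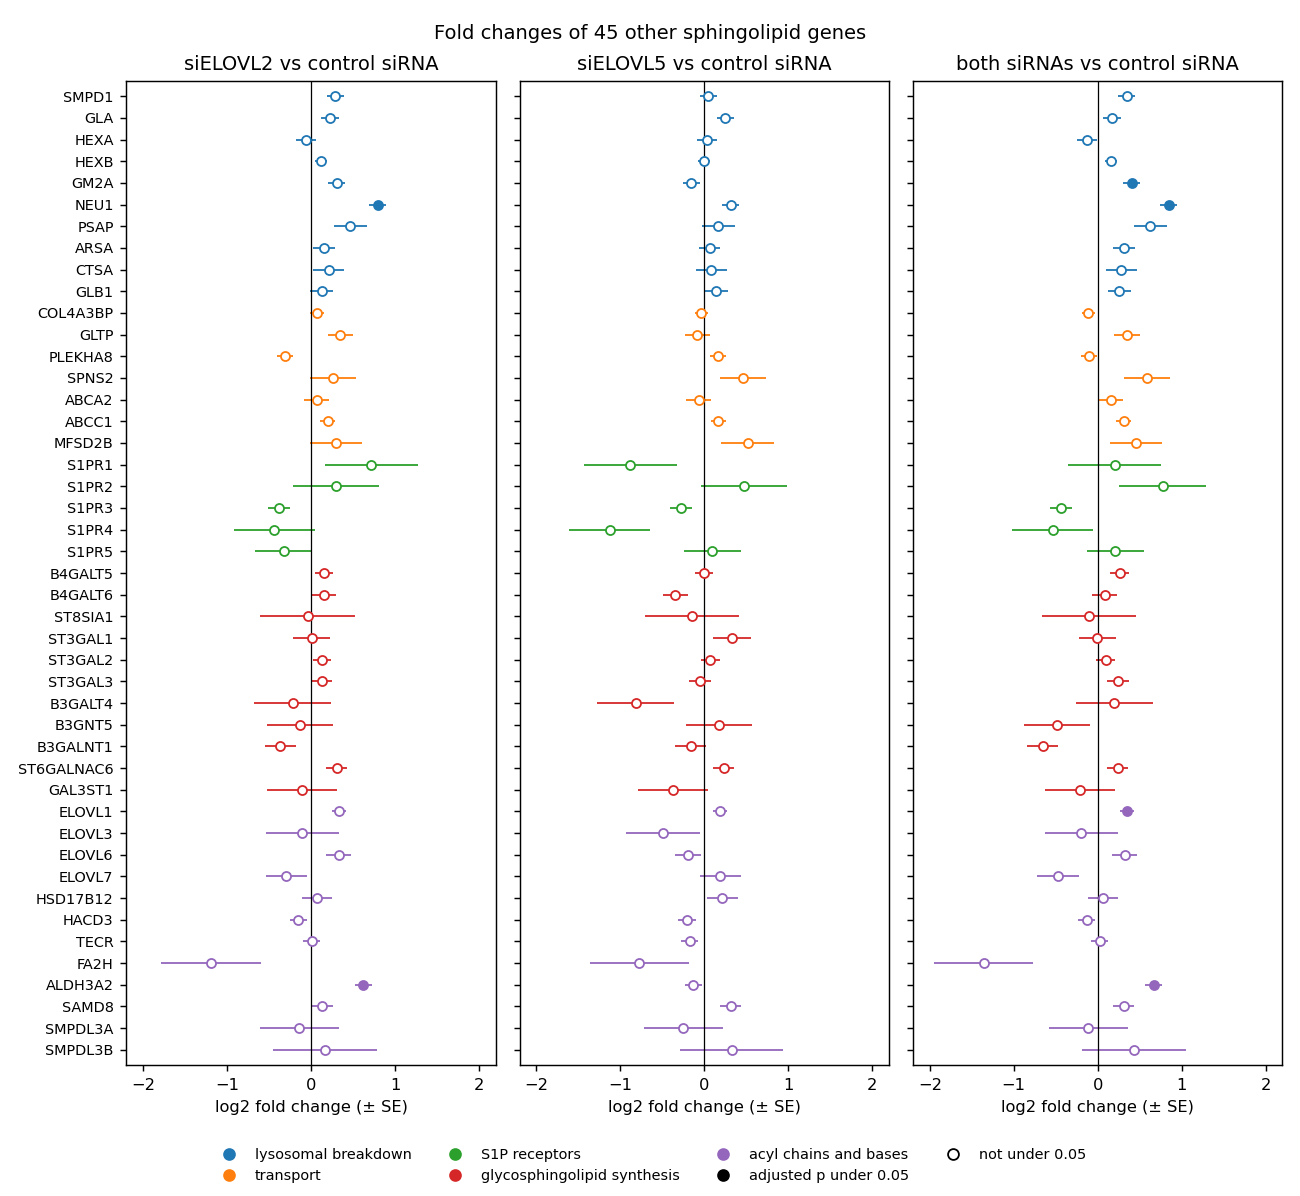
Log2 fold change (log2(value + 1) scale, with SE) against control siRNA of the 45 further sphingolipid genes tested, after siELOVL2, siELOVL5 and both siRNAs, coloured by list, with filled points at an adjusted p under 0.05. NEU1 and ALDH3A2 are filled after siELOVL2, none after siELOVL5, and both of these with GM2A and ELOVL1 after both siRNAs.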

How the data were processed

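RNA from 12 A498 libraries had been sequenced as paired-end 36-base reads on a NextSeq 500, per the labels. The deposited signal is 1 normalized value per gene and library, and the authors' file calls it normalized. Each column holds the same set of values in steps of 1 over 12, the pattern of quantile-normalized counts. The sources used here name no aligner, annotation or build. No column of another sample was found (0).

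Values were analysed as log2(value + 1) in R 4.3.3 with limma 3.58.1, with all 4 groups in 1 fit (leaving 8 residual degrees of freedom), an intensity trend, no replicate block and Benjamini-Hochberg adjustment over the 18648 genes that reached 1 in 3 or more libraries. The threshold was an adjusted p of 0.05. The p-values rest on the spread among the 3 biological replicates within all 4 groups, drawn towards the intensity trend. A library outside a comparison therefore also affects its p-value. Depth was estimated from ties among low counts, and whole reads could be recovered for low counts only, so no count test was run. TMM scaling followed the published procedure. On simulated data for siELOVL2 against control (17582 genes), 79% of 100 changes of log2 1 and 42% of 100 of log2 0.5 were recovered, with 8 false calls.

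Values per library are given for members called in any of 7 comparisons and for the up to 6 largest fold changes in each knockdown against control among members averaging at least 50. The members, role groups and further lists were chosen with earlier results of these data known. CERS1 and CERS3 were not tested. The third siELOVL5 library was kept. A gene of the further lists is not reported here.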

Additional observations from a re-analysis of the deposited data

Results flagged for a closer look

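Of the members, 3 differed between the single knockdowns by the direct test, which is what drew attention to them. CERK was higher after siELOVL5 than after siELOVL2 by 1.45 (log2, limma adjusted p = 2.39e-04), with all 3 siELOVL5 libraries (293.4 to 410.7 normalized counts) above all 3 siELOVL2 libraries (122.3 to 147.5). SPTLC1 stood lower after siELOVL5 (-0.48, adjusted p = 0.00201), with 926.9 to 980.8 normalized counts after siELOVL5, against 1284 to 1393 after siELOVL2. SPTLC2 was higher after siELOVL5 by 0.51 (adjusted p = 0.0374), with 887.8 to 1084 normalized counts after siELOVL5, against 621.2 to 729.1 after siELOVL2. Of all 18648 tested genes, 3.01% were called in this comparison.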

How the results depend on the processing

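Of 550 named member results under the alternatives tried, 478 kept their direction and side of the threshold, 25 passed it anew, 47 lost it and 0 reversed. Many of the 550 were of members not called in the reported fit, which had no call to lose. CERK lost none of its calls, so all 47 losses fell on the other called results. Other scaling moved the median of all genes by under 0.05 (log2). The counts of calls moved more, and the cause was not tested. Without the intensity trend, 101 genes were called for siELOVL2 against control (254 as reported), 413 for the double knockdown against control (825), 21 for the double knockdown against siELOVL2 (11), 200 for the double knockdown against siELOVL5 (516), 213 for siELOVL5 against siELOVL2 (562) and 9 for the interaction (0). Called members were then 1, 2 and 1 for siELOVL2 against control (2), the double knockdown against control (4) and against siELOVL5 (3). With library weights the first 5 of these comparisons called 1569, 2241, 27, 1251 and 1643 genes, and siELOVL5 against control called 145 (26). Members were then 4 for siELOVL2 against control, 2 for siELOVL5 against control (0) and 6 for the double knockdown against control (4). The 2 for siELOVL5 against control were SGPL1 and SPTLC1. They were 5 for the double knockdown against siELOVL5 and 5 for siELOVL5 against siELOVL2 (3). SPHK2 and UGT8 were the members added for the double knockdown against control. With only the groups compared in the fit, genes were 412, 1, 1, 21 and 49 for siELOVL2 and siELOVL5 against control, the double knockdown against siELOVL2 and against siELOVL5, and siELOVL5 against siELOVL2, and the last 2 called 1 member each. TMM or median-of-ratios scaling called 4 members for siELOVL2 against control and 1 for siELOVL5 against control, and a mean of at least 10 called 1 for siELOVL5 against control.

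Leaving out 1 library gave 63 to 829 genes for siELOVL2 against control, 9 to 39 for siELOVL5 against control, 325 to 1775 for the double knockdown against control, 2 to 16 for the double knockdown against siELOVL2, 154 to 791 for it against siELOVL5, and 165 to 707 for siELOVL5 against siELOVL2. Members were 1 to 4, 0 to 1, 2 to 5, 0 to 0, 1 to 3 and 2 to 4 in the same order, and the interaction stayed at 0.

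Libraries of the same replicate number tended to deviate from their group means together. Of 18 same-numbered pairs, 9 correlated over 0.1 (range -0.00123 to 0.212, against -0.215 to 0.0644 for other pairs). Among the 12 libraries, 10 correlated best with their own number. The reported fit has no replicate block, so this shared part stays in its spread. With the replicate number as a block, 861, 99, 1866, 1368 and 1317 genes were called for siELOVL2, siELOVL5 and double knockdown against control, double knockdown against siELOVL5 and siELOVL5 against siELOVL2, with 5, 1, 7, 5 and 4 members. Members called with the block and not without it were CERS6, SPTLC2 and ST3GAL5 for siELOVL2 against control, SGPL1 for siELOVL5 against control, CERS4, ST3GAL5 and UGT8 for the double knockdown against control, SPHK2 and ST3GAL5 for it against siELOVL5, and ST3GAL5 for siELOVL5 against siELOVL2 (limma adjusted p = 4.24e-04). The block called 12 genes for the double knockdown against siELOVL2.

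With 3 libraries a group, the simulated recovery leaves room for missed changes of modest size, and it does not cover members with low values. The simulation changed genes for siELOVL2 against control only and had no deviations shared within a replicate number. Its recovery therefore does not carry over to the other comparisons. Members that stayed under 10 normalized counts (SPTSSB, SGPP2, DEGS2 and ASAH2) rest on few reads.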
